A study of Mus musculus with 8 samples.

Results

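Dorsal root ganglia are the clusters of sensory nerve cell bodies that lie between the vertebrae, so a dissected spine carries them along with bone, cartilage, muscle and spinal cord. The 9 genes described here, Scn9a, Scn10a, Trpv1, Piezo2, Ntrk3, Calca, Tac1, Pou4f1 and Prph, are genes used to recognise sensory neurons of these ganglia. They were chosen by name as sensory neuron genes, with earlier results of these data known, and are 9 of 27179 genes counted in the table. All 9 passed the filter on low counts, which 18104 genes passed.

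Whole spines of mouse embryos at E18.5, shortly before birth, were profiled by stranded mRNA sequencing in 8 libraries, 2 in each group. The groups were male Pax1-Enh KO, male WT, female Pax1-Enh KO and female WT. KO stands for deletion of a genomic region at Pax1 that the series' title links to adolescent idiopathic scoliosis, and WT for wild type. No other allele, strain or treatment is given in the sources used here, and the labels do not say whether the 2 libraries of a group came from separate embryos, so p-values measure the spread between these libraries, which may be technical.

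Sensory neurons detect heat, touch, limb position and tissue damage through ion channels in their endings. Action potentials start with voltage-gated sodium channels, of which Scn9a encodes Nav1.7 and Scn10a encodes Nav1.8. Trpv1 encodes the heat and capsaicin receptor, and Piezo2 encodes the mechanically gated channel of touch and proprioception. Ntrk3 encodes TrkC, the receptor for neurotrophin-3 that proprioceptors need for survival. Calca encodes calcitonin and, by alternative splicing in neurons, calcitonin gene-related peptide. Tac1 encodes the precursor of substance P. Pou4f1 encodes BRN3A, a homeodomain factor of sensory neurons, and Prph encodes peripherin, an intermediate filament of peripheral neurons. Several of these genes are also used by other neurons: Tac1, Pou4f1 and Calca in the spinal cord, Prph in motor and sympathetic neurons, and Scn9a in sympathetic neurons.

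Library totals were 59722279 to 67575728 counts in KO and 35181518 to 48021848 counts in WT, so all KO libraries were deeper than all WT libraries. Levels are given as CPM, the counts of a gene relative to the TMM-scaled size of its library. Skeletal transcripts were present in every library, with Col2a1, the main cartilage collagen, at 7979 to 22474 CPM in KO and 3526 to 8737 CPM in WT. Pax1 itself was at 18.9 to 30.4 CPM in KO and 17.0 to 27.0 CPM in WT. Defining sensory markers outside the 9 genes were present too. Avil, an actin regulator of sensory neurons, was at 37.3 to 81.4 CPM in KO and 17.3 to 56.6 CPM in WT, and the ATP-gated channel P2rx3 was at 36.8 to 63.1 CPM in KO and 20.5 to 49.2 CPM in WT. Mrgprb4, a receptor of a later-maturing touch neuron class, was at 0 counts in all 8 libraries, and Neurog1, a factor of sensory progenitors, had at most 1 count. In bulk tissue, fewer sensory neurons and less RNA per neuron cannot be told apart.

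The promoters of 4 of the genes are shown because these genes differ in their patterns across the libraries: Scn10a and Trpv1 resembled each other, as did Scn9a and Tac1. Each is a 300-base window given as the promoter of the gene in GRCm38.p6, in the direction of transcription. The windows are at chr9:119718983-119719282 (minus strand) for Scn10a, chr11:73233899-73234198 (plus strand) for Trpv1, chr2:66634913-66635212 (minus strand) for Scn9a and chr6:7554811-7555110 (plus strand) for Tac1. Those of Trpv1, Scn9a and Tac1 hold the start of the gene span given below. That of Scn10a lies wholly inside its span, whose start on the minus strand is at 119719322. Capitals mark TGACG, the core of the cAMP response element, or TGTGGT, the core bound by Runx factors, on either strand.
Scn10a: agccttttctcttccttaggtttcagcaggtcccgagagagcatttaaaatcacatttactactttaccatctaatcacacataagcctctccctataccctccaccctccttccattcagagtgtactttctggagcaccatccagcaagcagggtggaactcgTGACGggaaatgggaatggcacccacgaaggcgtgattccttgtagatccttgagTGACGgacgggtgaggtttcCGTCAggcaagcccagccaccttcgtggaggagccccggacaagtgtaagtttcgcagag
Trpv1: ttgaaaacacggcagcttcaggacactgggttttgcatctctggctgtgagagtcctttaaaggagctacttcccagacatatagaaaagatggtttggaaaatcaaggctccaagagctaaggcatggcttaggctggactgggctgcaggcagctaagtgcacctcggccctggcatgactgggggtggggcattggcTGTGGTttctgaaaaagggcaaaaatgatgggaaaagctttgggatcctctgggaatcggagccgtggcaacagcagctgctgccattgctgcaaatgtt
Scn9a: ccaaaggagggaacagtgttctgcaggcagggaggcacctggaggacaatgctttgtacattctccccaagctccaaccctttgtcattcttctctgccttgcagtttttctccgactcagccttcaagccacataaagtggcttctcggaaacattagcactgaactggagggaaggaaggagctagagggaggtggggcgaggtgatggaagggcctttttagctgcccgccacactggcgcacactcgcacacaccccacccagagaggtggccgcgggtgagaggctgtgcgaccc
Tac1: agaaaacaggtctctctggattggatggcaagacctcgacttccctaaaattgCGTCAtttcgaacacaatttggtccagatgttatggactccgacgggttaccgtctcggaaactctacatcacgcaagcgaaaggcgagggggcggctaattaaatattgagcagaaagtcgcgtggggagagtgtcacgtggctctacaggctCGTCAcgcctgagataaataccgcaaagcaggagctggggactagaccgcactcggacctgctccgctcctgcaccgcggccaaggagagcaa

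TGACG occurred 3 times in the Scn10a window and 2 times in that of Tac1, and in neither Trpv1 nor Scn9a. It also occurred 1 time in the Calca window, and 20.8% of 32851 promoters of this length held it. TGTGGT occurred 1 time, in Trpv1, and 16.8% of promoters held it. The BRN3A core ATTAAT (its own reverse complement, in 4.75% of promoters) and the RE1 core GGACAG (22.2%) were in none of the 7 windows searched, those of Scn9a, Scn10a, Trpv1, Calca, Tac1, Pou4f1 and Prph. Like that of Scn10a, the windows of Calca and Prph lie wholly inside the gene spans given below. For these genes the search does not describe the bases at the start of the span. No window held TGACG together with TGTGGT. A match is a description of the letters and not evidence of binding.

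Per kilobase of the longest transcript in GENCODE M21, Prph was highest among the 9 genes, at 102.3 ± 22.1 CPM per kilobase (SD, n = 8). Calca followed at 31.9 ± 7.65 and Tac1 at 13.4 ± 5.52 CPM per kilobase. Scn10a was at 5.73 ± 2.92, Piezo2 at 4.85 ± 1.97, Pou4f1 at 3.87 ± 0.738 and Scn9a at 3.44 ± 1.24 CPM per kilobase. Ntrk3 was at 1.12 ± 0.152 and Trpv1 at 0.567 ± 0.304 CPM per kilobase. The ranges of the 8 libraries did not overlap between Prph and Calca or between Scn9a and Ntrk3. The other neighbours in this order overlapped, with Calca above Tac1 in 8 of 8 libraries but Scn10a above Piezo2, and Piezo2 above Pou4f1, in 6 of 8. With the exons of all transcripts joined in place of the longest transcript, Pou4f1 and Piezo2 changed places and the rest of the order was the same. The annotation used for the counting is not given in the sources used here, so a gene with many long isoforms such as Ntrk3 (longest transcript 19703 bases) may be placed too low.

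**Figure D1:**
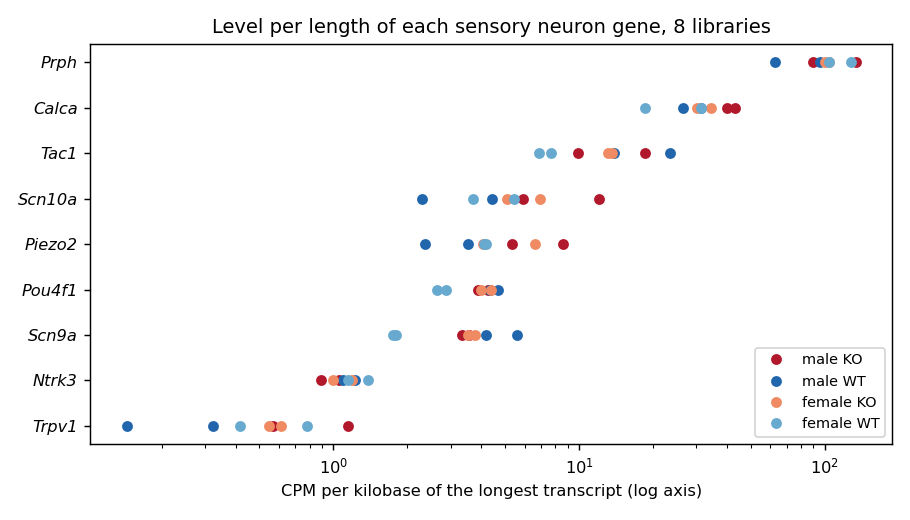
CPM per kilobase of the longest transcript (log axis) for each of the 9 genes, 1 point per library, coloured by group. Prph lies above the others in every library, and Trpv1 spans the widest range, 0.144 to 1.15 CPM per kilobase.

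The sodium channels Scn10a and Scn9a had different patterns across the same libraries. Scn10a (Entrez gene 20264, chromosome 9, 119608456 to 119719322 in GRCm38.p6, the mm10 build) was at 80.7 and 39.6 CPM in male KO, against 29.7 and 15.3 CPM in male WT. In females it was at 34.2 and 46.3 CPM in KO, against 24.8 and 36.4 CPM in WT. Both male KO libraries were above both male WT libraries, and the female genotypes overlapped. Its genotype difference (log2 fold change) was 1.42 in males (SE 0.43, edgeR adjusted p = 0.258) and 0.40 in females (SE 0.42, adjusted p = 0.715), so neither passed the threshold of 0.05.

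Scn9a (Entrez gene 20274, chromosome 2, 66480080 to 66635114) was at 32.9 and 35.2 CPM in male KO, against 41.0 and 54.9 CPM in male WT. In females it was at 37.2 and 34.8 CPM in KO, against 17.3 and 17.6 CPM in WT. Male KO was thus below male WT and female KO above female WT, with no overlap in either sex, while the 4 KO libraries lay between 32.9 and 37.2 CPM. On the log2 scale KO minus WT was -0.49 in males (SE 0.22, edgeR adjusted p = 0.338) and 1.04 in females (SE 0.22, adjusted p = 0.532). DESeq2 called the female difference (1.03, adjusted p = 0.0265) and did not call the male one (adjusted p = 0.396).

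Within a library the ratio of Scn10a to Scn9a counts does not depend on the scaling between libraries. It was 2.45 and 1.13 in male KO, against 0.725 and 0.279 in male WT. In females it was 0.921 and 1.33 in KO, against 1.43 and 2.06 in WT. The ratio was higher in KO in males and lower in KO in females. This pair was chosen after its values were seen, so the ratio was given no test. Over the neuronal gene Tubb3, Scn9a was at 0.0624 and 0.121 in male KO, against 0.0874 and 0.109 in male WT, which overlapped. In females Scn9a over Tubb3 was 0.0724 and 0.0671 in KO, against 0.0310 and 0.0401 in WT, without overlap. This ratio was not tested either.

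The sensor channels Trpv1 and Piezo2 resembled Scn10a. Trpv1 (Entrez gene 193034, chromosome 11, 73234149 to 73261322) was at 3.86 and 1.91 CPM in male KO, against 1.08 and 0.484 CPM in male WT. Female KO had 2.05 and 1.84 CPM, against 1.39 and 2.63 CPM in female WT. It was the gene with the fewest counts: the lowest library, male WT 2, held 21 counts (95% exact Poisson interval 13.0 to 32.1, counting error only) and the highest, male KO 1, held 295 counts (262.3 to 330.7). On the log2 scale KO minus WT was 1.88 in males (SE 0.54, edgeR adjusted p = 0.247), with no overlap between the genotypes, and -0.05 in females (SE 0.51, adjusted p = 0.977), where they overlapped.

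Piezo2 (Entrez gene 667742, chromosome 18, 63010213 to 63387716) was at 92.3 and 57.4 CPM in male KO, against 37.8 and 25.3 CPM in male WT. In females it was at 43.6 and 71.2 CPM in KO, against 44.7 and 43.9 CPM in WT. The male genotypes did not overlap, and in females 1 KO library lay below both WT libraries. Its log2 fold change, KO over WT, was 1.24 in males (SE 0.34, edgeR adjusted p = 0.241) and 0.37 in females (SE 0.33, adjusted p = 0.671).

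Of the peptide precursors, Calca had positive values in both sexes and Tac1 resembled Scn9a. Calca (Entrez gene 12310, chromosome 7, 114625981 to 114636910) was at 39.7 and 42.9 CPM in male KO, against 26.4 and 31.1 CPM in male WT. Female KO had 29.9 and 34.2 CPM, against 18.4 and 31.2 CPM in female WT. The male genotypes did not overlap and the female ones did. KO minus WT on the log2 scale was 0.52 in males (SE 0.28, edgeR adjusted p = 0.390) and 0.37 in females (SE 0.28, adjusted p = 0.624). The count joins the calcitonin and the peptide transcripts of the gene, and reads shared with its close paralog Calcb cannot be assigned with certainty.

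Tac1 (Entrez gene 21333, chromosome 6, 7555061 to 7562978) was at 19.6 and 36.5 CPM in male KO, against 27.3 and 46.2 CPM in male WT. Female KO libraries had 26.9 and 26.0 CPM, against 15.2 and 13.5 CPM in female WT. The genotypes overlapped in males and did not in females. Its log2 fold change, KO over WT, was -0.39 in males (SE 0.34, edgeR adjusted p = 0.590) and 0.88 in females (SE 0.35, adjusted p = 0.532).

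The receptor Ntrk3 was the steadiest of the 9 genes, with a 1.56-fold range over the 8 libraries. Ntrk3 (Entrez gene 18213, chromosome 7, 78179986 to 78581034) was at 20.8 and 17.5 CPM in male KO, against 24.1 and 21.5 CPM in male WT. Female KO had 19.6 and 23.5 CPM, against 22.6 and 27.3 CPM in female WT. The genotypes did not overlap in males and overlapped in females. It was the only one of the 9 genes with a negative value in both sexes, -0.25 in males (SE 0.23, edgeR adjusted p = 0.598) and -0.21 in females (SE 0.22, adjusted p = 0.715).

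The transcription factor Pou4f1 (Entrez gene 18996, chromosome 14, 104461675 to 104468118) was at 19.0 and 17.2 CPM in male KO, against 20.7 and 19.3 CPM in male WT. Female KO libraries had 17.7 and 19.4 CPM, against 11.7 and 12.7 CPM in female WT. As with Scn9a, both male KO libraries were below both male WT libraries, and the female WT libraries were the lowest pair of all. KO minus WT on the log2 scale was -0.14 in males (SE 0.20, edgeR adjusted p = 0.751) and 0.60 in females (SE 0.20, adjusted p = 0.532).

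Prph (Entrez gene 19132, chromosome 15, 99053579 to 99058978) was at 249.8 and 167.4 CPM in male KO, against 178.8 and 116.9 CPM in male WT. Female KO had 194.3 and 187.3 CPM, against 193.3 and 237.5 CPM in female WT. The genotypes overlapped in both sexes. KO minus WT on the log2 scale was 0.50 in males (SE 0.31, edgeR adjusted p = 0.457) and -0.18 in females (SE 0.31, adjusted p = 0.832).

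**Figure D2:**
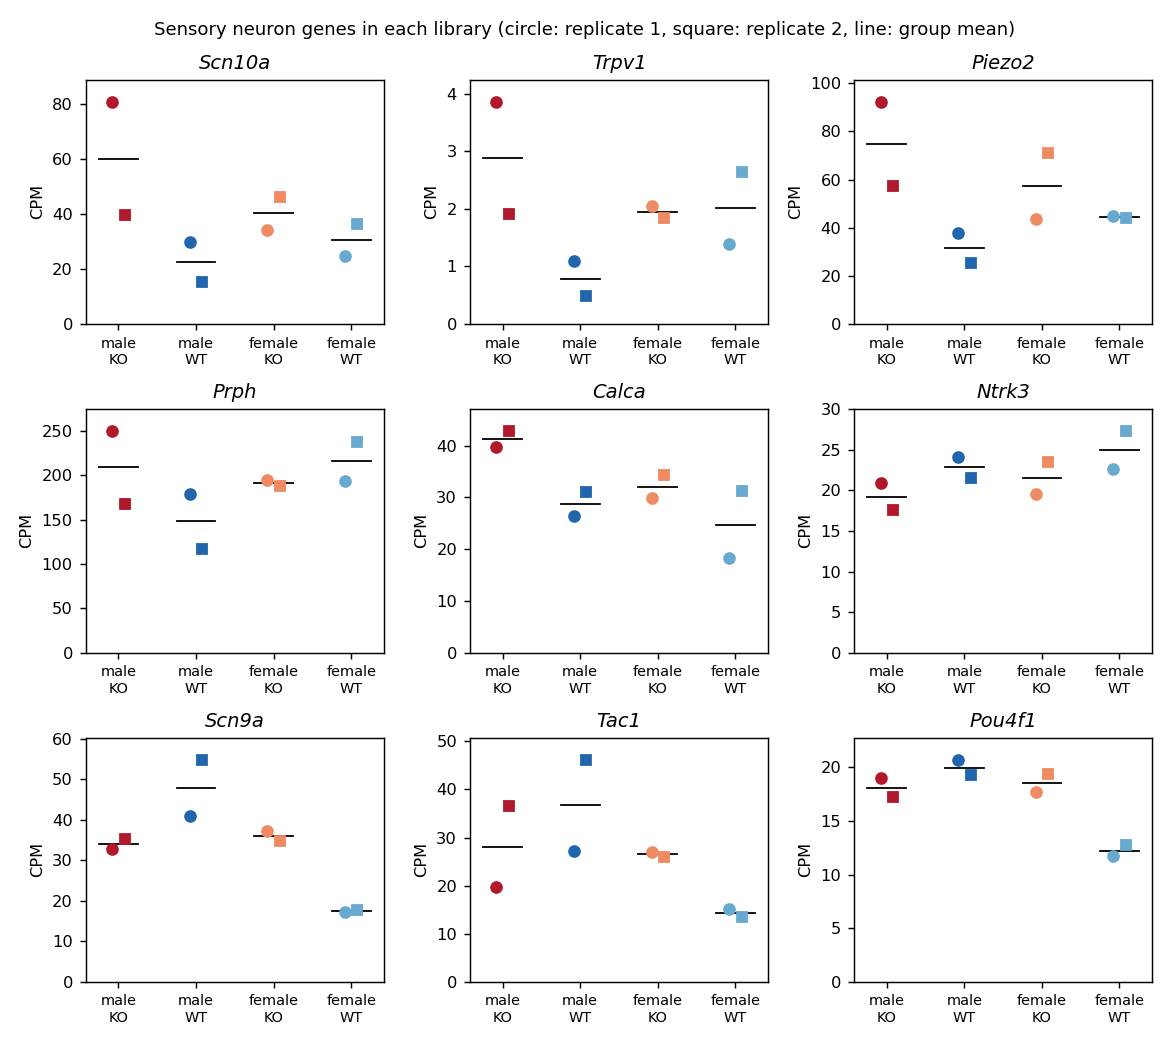
CPM of each of the 9 genes (linear axes from 0) in the 8 libraries, with male KO, male WT, female KO and female WT from left to right; circles are replicate 1, squares replicate 2 and lines group means. Scn10a, Trpv1 and Piezo2 are highest in 1 male KO library, while Scn9a and Tac1 are highest in 1 male WT library and lowest in female WT.

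The 9 genes did not share a single pattern over the 8 libraries. Scn10a, Trpv1, Piezo2 and Prph were each highest in male KO 1 and lowest in male WT 2. The pairwise Pearson correlations of their log2 CPM were 0.95 for Scn10a with Piezo2, 0.91 for Scn10a with Trpv1, 0.92 for Trpv1 with Prph and 0.70 for Piezo2 with Prph. Scn9a correlated with Pou4f1 (0.92) and Tac1 (0.91) and not with Scn10a (-0.18). Tac1 and Prph had opposite patterns (-0.83). These correlations describe 8 libraries that share their scaling and differ in depth, and were given no p.

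The fold between the highest and the lowest library was 7.96 for Trpv1, 5.28 for Scn10a, 3.64 for Piezo2, 3.41 for Tac1 and 3.18 for Scn9a. It was 2.33 for Calca, 2.14 for Prph, 1.77 for Pou4f1 and 1.56 for Ntrk3. The order of the libraries, read as a measure of ganglion in each spine, differed by gene: Scn10a puts male KO 1 highest and male WT 2 lowest, while Scn9a puts male WT 2 highest and female WT 1 lowest.

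**Figure D3:**
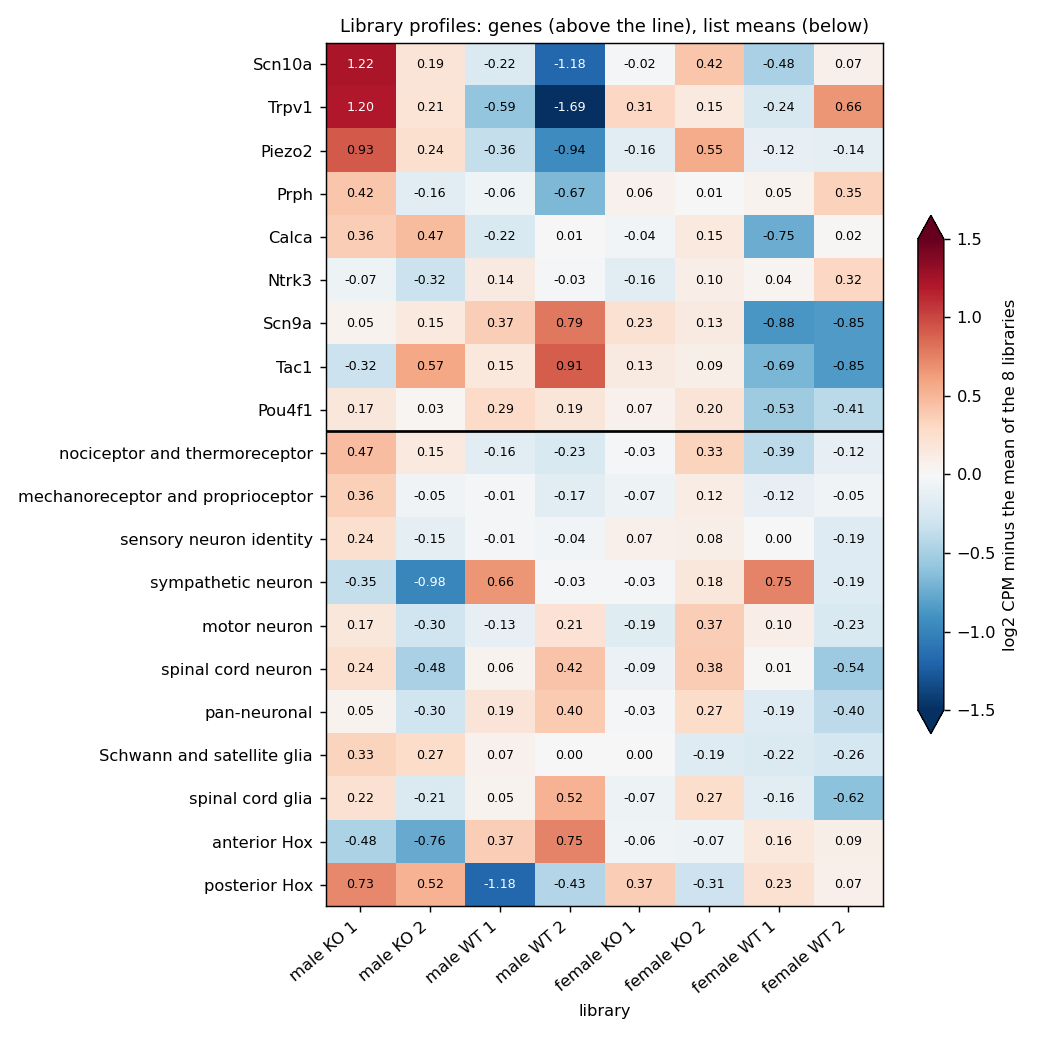
Log2 CPM minus the mean of the 8 libraries, as colour and number, for the 9 genes (above the line) and for the mean over the tested genes of 11 marker lists (below), with 1 column per library. Scn10a and Trpv1 stand at 1.22 and 1.20 in male KO 1 and at -1.18 and -1.69 in male WT 2, where Scn9a and Tac1 stand at 0.79 and 0.91.

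The genes differed in which list means they resembled. Over the 8 libraries the mean of 16 other nociceptor and thermoreceptor genes had correlations of 0.86 (Scn10a), 0.85 (Piezo2) and 0.80 (Calca). Lower values were 0.63 with Trpv1, 0.51 with Pou4f1, 0.40 with Prph, 0.25 with Scn9a, 0.08 with Tac1 and -0.28 with Ntrk3. The mean of 13 mechanoreceptor and proprioceptor genes had higher values with Scn10a (0.91) and Piezo2 (0.87). Its correlations were 0.70 with Trpv1, 0.63 with Prph, 0.49 with Calca, 0.35 with Pou4f1 and 0.02 with Scn9a. With Ntrk3 the value was -0.02 and with Tac1 -0.25. The mean of 16 pan-neuronal genes, which the spinal cord also expresses, had correlations of 0.77 with Scn9a, 0.75 with Pou4f1 and 0.59 with Tac1, against -0.24 with Scn10a and -0.57 with Trpv1. For the mean of 15 spinal cord neuron genes the correlations were 0.53 with Scn9a, 0.53 with Pou4f1 and 0.34 with Tac1, and for that of 10 motor neuron genes 0.21, 0.25 and 0.09 in the same order. The mean of 12 spinal cord glia genes was at 0.77 with Scn9a and -0.15 with Scn10a. The mean of 12 sympathetic neuron genes was at -0.87 with Calca and 0.56 with Ntrk3. Ntrk3 was at 0.85 with the mean of 10 adipocyte genes and at -0.18 with that of 10 sensory identity genes. Scn10a and Piezo2 also had correlations of -0.78 and -0.81 with the mean of 10 anterior Hox genes, active from the neck to the upper trunk. Each is a description over the same 8 libraries.

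Of genes outside the 9, those closest to their mean pattern by Pearson correlation over the 8 libraries were Acpp (0.97), Atp10a, Sel1l3, Synm, Cers4, F2rl2, Gna14, Ahnak2, Nefh and Nectin4 (0.93). That mean was highest in male KO 1 (0.44 above the mean of the 8 libraries on the log2 scale) and lowest in female WT 1 (-0.40).

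The comparison of male KO with male WT asked whether sensory neuron transcripts differ between the genotypes in males. In edgeR 0 of the 9 genes passed, with 0.0% of 18104 genes called. At an unadjusted p under 0.05 there were 3 of 9 (Scn10a, Trpv1 and Piezo2), where 14.8% of all genes were so. DESeq2 called the same 3 genes as higher, where it called 1.84% of genes as higher, with log2 fold changes of 1.46 for Scn10a (adjusted p = 0.0354), 1.92 for Trpv1 (adjusted p = 0.0257) and 1.28 for Piezo2 (adjusted p = 0.0273). The male KO libraries lay above the male WT libraries without overlap for 4 of the 9 genes and below for 3, against 19.7% and 23.9% of all genes. The median log2 fold change of the 9 genes was 0.50, and that of all genes tested was -0.06. In edgeR the values of Scn10a, Trpv1 and Piezo2 were 0.82, 1.29 and 0.86 without male KO 1, and 0.60, 1.35 and 0.53 with the mitochondrial share of counts as a covariate.

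Other tissue markers moved with the male genotypes. Mitochondrial genes took 4.56% and 15.6% of the counts in male KO, against 18.3% and 20.9% in male WT. The 10 anterior Hox genes summed to 51.6 to 62.0 CPM in male KO and 125.2 to 154.8 CPM in male WT, and the 15 posterior Hox genes, active in the lower trunk and tail, to 132.9 to 140.1 CPM in male KO and 95.9 to 105.2 CPM in male WT. The 10 adipocyte genes summed to 309.8 to 519.9 CPM in male KO and 854.4 to 5341 CPM in male WT. The 16 pan-neuronal genes summed to 3116 to 3919 CPM in male KO and 4210 to 4853 CPM in male WT, and the 14 Schwann and satellite glia genes to 1094 to 1465 CPM in male KO and 1950 to 3090 CPM in male WT. The 12 sympathetic neuron genes, with none at 0 in every library, summed to 122.1 to 133.8 CPM in male KO and 167.1 to 244.5 CPM in male WT. The part of these differences in the values of Scn10a, Trpv1 and Piezo2 was not tested.

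In females the same question gave other genes. In edgeR 0 of the 9 genes passed, with 0.0% of 18104 genes called, and 3 of 9 had an unadjusted p under 0.05 (Scn9a, Tac1 and Pou4f1), where 9.27% of all genes were so. DESeq2 called Scn9a alone, as higher, where it called 0.135% of genes as higher. Female KO lay above female WT without overlap for 3 of the 9 genes and below for 0, against 25.9% and 26.2% of all genes. The median log2 fold change was 0.37, and that of all genes was 0.03.

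The female genotypes also differed in other markers. The 15 spinal cord neuron genes summed to 221.8 to 290.8 CPM in female KO and 134.0 to 185.5 CPM in female WT, the 16 pan-neuronal genes to 3662 to 4448 CPM in KO and 2995 to 3374 CPM in WT, and the 12 spinal cord glia genes to 565.7 to 729.3 CPM in KO and 383.3 to 494.5 CPM in WT. The 10 adipocyte genes summed to 262.7 to 455.5 CPM in female KO and 847.3 to 5560 CPM in female WT. The 10 anterior Hox genes summed to 85.7 to 87.6 CPM in female KO and 95.1 to 97.6 CPM in female WT. The 15 posterior Hox genes summed to 112.0 to 179.9 CPM in female KO and 92.9 to 96.7 CPM in female WT. By gene, 5 of 10 anterior and 8 of 14 tested posterior Hox genes had positive log2 fold changes in females. The mitochondrial share was 13.6% and 4.66% in KO, against 5.55% and 7.27% in WT. The part of these differences in the values of Scn9a, Tac1 and Pou4f1 was not tested.

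**Figure D4:**
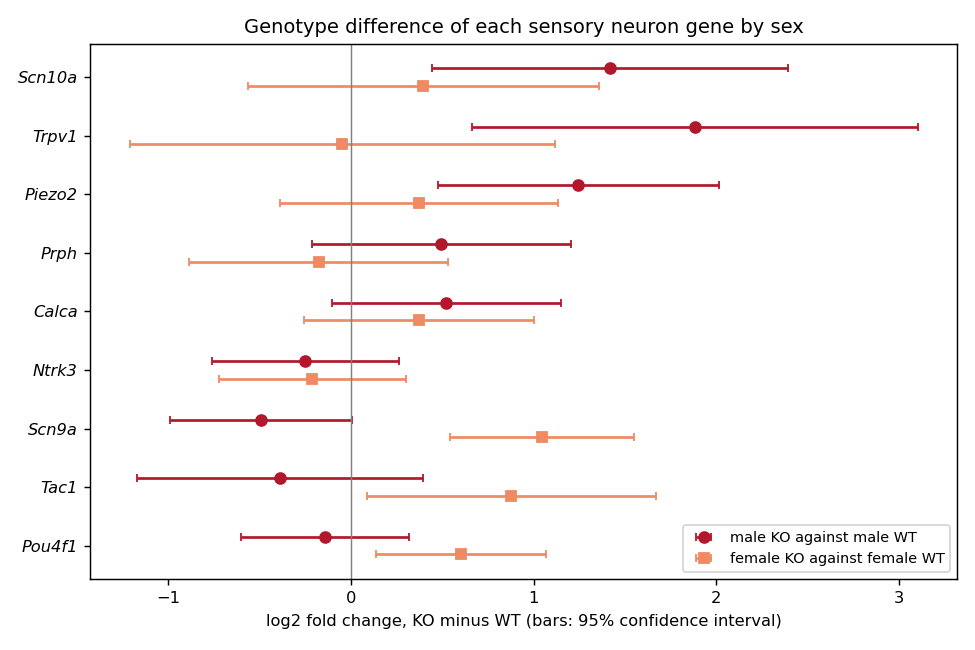
Log2 fold change, KO minus WT, of each of the 9 genes in males (circles) and females (squares), with 95% confidence intervals from the edgeR fit; these intervals are not adjusted for the number of genes. The male intervals of Scn10a, Trpv1 and Piezo2 and the female intervals of Scn9a, Tac1 and Pou4f1 lie above 0.

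Over both sexes 8 of the 9 genes had positive values, as did 48.9% of all genes tested, and 0 passed in edgeR, with 0.0% of genes called, or in DESeq2, with 0.779% of genes called. The values were 0.91 for Scn10a (SE 0.34, adjusted p = 0.699), 0.90 for Trpv1 (SE 0.50, adjusted p = 0.783), 0.81 for Piezo2 (SE 0.28, adjusted p = 0.672) and 0.45 for Calca (SE 0.20, adjusted p = 0.728) in edgeR. An unadjusted p under 0.05 was reached by 3 of 9 genes in edgeR and 3 of 9 in DESeq2. Among all genes 6.83% reached it in edgeR, and 1467 of 18104 in DESeq2. For all 9 genes the 4 KO libraries overlapped with the 4 WT libraries, while 3.32% of all genes did not overlap. The median of the 9 genes was 0.27, and that of all genes was -0.01. Without male KO 1 the values of Scn10a, Trpv1 and Piezo2 were 0.57, 0.49 and 0.57. Beside them, the adipocyte genes summed to 262.7 to 519.9 CPM in the 4 KO libraries and 847.3 to 5560 CPM in the 4 WT libraries. The anterior Hox genes summed to 51.6 to 87.6 CPM in KO and 95.1 to 154.8 CPM in WT. The posterior Hox genes summed to 112.0 to 179.9 CPM in KO and 92.9 to 105.2 CPM in WT. None of these sums overlapped between the genotypes. Their part in the values was not tested.

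Whether the genotype difference depends on sex was tested as the female effect minus the male effect. In edgeR 0 of the 9 genes passed, with 0.0% of genes called, and 4 of 9 had an unadjusted p under 0.05 (16.7% of all genes). Scn9a had the largest positive difference, 1.54 (SE 0.31, adjusted p = 0.243), followed by Tac1 at 1.27 (SE 0.49, adjusted p = 0.275) and Pou4f1 at 0.75 (SE 0.29, adjusted p = 0.275). Trpv1 had the largest negative one, -1.93 (SE 0.74, adjusted p = 0.275), and Scn10a was at -1.02 (SE 0.60, adjusted p = 0.389). DESeq2 called Scn9a as higher (1.49, adjusted p = 0.0155), where it called 1.12% of genes as higher. Adding the mitochondrial share to the fit, the Scn10a value was -0.01 and the Piezo2 value 0.00, and that of Scn9a 1.36.

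Female WT was also compared with male WT. Against male WT, female WT had log2 fold changes of -1.46 for Scn9a (SE 0.22, edgeR adjusted p = 0.102), -1.35 for Tac1 (SE 0.35, adjusted p = 0.106) and -0.71 for Pou4f1 (SE 0.20, adjusted p = 0.113), and 1.36 for Trpv1 (SE 0.54, adjusted p = 0.159). In edgeR 0 of the 9 genes passed, with 0.00552% of genes called, and 4 of 9 had an unadjusted p under 0.05, as did 27.3% of all genes. DESeq2 called Scn9a (-1.42, adjusted p = 6.434e-05) and Tac1 (-1.32, adjusted p = 0.0127) as lower, where it called 7.57% of genes as lower. Female WT lay above male WT without overlap for 3 genes and below for 3, near the 31.0% and 35.1% of all genes. Beside these values, mitochondrial genes took 5.55% and 7.27% of the counts in female WT, against 18.3% and 20.9% in male WT. The pan-neuronal sum was 2995 to 3374 CPM in female WT and 4210 to 4853 CPM in male WT, and the spinal cord glia sum was 383.3 to 494.5 CPM in female WT and 596.9 to 885.6 CPM in male WT. Their part was not tested.

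Among other genes of sensory neurons, 0 passed in edgeR in either sex or over both. For the counts of positive values that follow, 45.4% of all genes tested were positive in males, 52.6% in females and 48.9% over both sexes. Of 16 tested nociceptor and thermoreceptor genes, of 18 listed, 11 were positive in males (median 0.70), 14 in females (0.35) and 15 over both sexes (0.47). The sodium channel Scn11a, which encodes Nav1.9 of nociceptors, was at 33.4 and 16.6 CPM in male KO, against 13.5 and 7.15 CPM in male WT, a log2 fold change of 1.27 (SE 0.47, edgeR adjusted p = 0.291). In females it was at 12.0 and 19.3 CPM in KO, against 8.82 and 15.9 CPM in WT (0.35, SE 0.46, adjusted p = 0.769). The cold receptor Trpm8 was at 1.39 in males (SE 0.43) and 0.36 in females (SE 0.42), and the peptide gene Adcyap1 was at 0.20 (SE 0.24) and 0.69 (SE 0.24). Runx1, a factor of nociceptor subtypes that blood and skeletal cells also express, was at 0.90 in males (SE 0.21) and 0.52 in females (SE 0.20). DESeq2 called Runx1 as higher in males (adjusted p = 0.0203) and over both sexes (adjusted p = 0.0190).

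Of 13 mechanoreceptor and proprioceptor genes, 9 were positive in males (median 0.26), 9 in females (0.16) and 7 over both sexes (0.31), with Etv1, a factor of proprioceptors, at 0.73 in males (SE 0.23) and 0.25 in females (SE 0.23). Nefh, the heavy neurofilament of large neurons, was at 0.50 (SE 0.25) and 0.43 (SE 0.25). Pvalb, which muscle also expresses, was at 0.72 (SE 0.57) and 0.84 (SE 0.58). Of 10 tested sensory identity genes, of 12 listed, 5 were positive in males (median 0.04), 6 in females (0.15) and 6 over both sexes (0.16). Avil was at 1.30 in males (SE 0.42) and -0.22 in females (SE 0.41), the sign pattern of Trpv1. The homeobox gene Pou4f3 was at 1.14 (SE 0.43) and -0.20 (SE 0.42). Six4 was positive in both sexes, at 0.36 in males (SE 0.25) and 0.27 in females (SE 0.25). In males 5 of the 10 tested identity genes were negative.

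Most genes of other kinds of neuron had negative values in males. Of 12 sympathetic neuron genes 11 were negative in males (median -1.06) and 7 in females (-0.46), with tyrosine hydroxylase (Th) at -1.06 in males (SE 0.58) and -0.93 in females (SE 0.57) and Hand2 at -1.51 (SE 0.61) and -0.77 (SE 0.60). Of 15 spinal cord neuron genes 12 were negative in males (median -0.42) and 13 positive in females (0.42), the same signs as Scn9a and Tac1. Gad2, an enzyme of inhibitory neurons, was at -0.37 in males (SE 0.36) and 1.11 in females (SE 0.36). Of 16 pan-neuronal genes 14 were negative in males (median -0.30) and 15 positive in females (0.30), and of 10 motor neuron genes 7 were negative in males (-0.25) and 6 positive in females (0.15). Of 14 Schwann and satellite glia genes, the support cells of nerve and ganglion, 12 were positive in males (median 0.29) and 8 in females (0.13), while their summed level in males, given above, was lower in KO. None of these genes passed in edgeR. In males DESeq2 called 2 sympathetic genes and 1 pan-neuronal gene as lower, and 2 Schwann and satellite glia genes as higher and 1 as lower, where it called 1.84% of all genes as higher and 0.812% as lower. In females it called 1 spinal cord glia gene, the water channel Aqp4, as higher (log2 fold change 1.52, adjusted p = 0.00626), where it called 0.135% of all genes as higher. That these lists differ from one another was not tested.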

How the data were processed

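Per the file headers, the authors deposited raw read counts per gene by Entrez gene ID, with no normalization. Per the submitters' processing notes, FastQC 1.0.0, MultiQC 1.0.0, HISAT2, featureCounts and mm10 were used; no source used here gives the annotation, strand setting or handling of multi-mapping reads, so reads of a gene and its antisense partner cannot be told apart. Symbols came from RefSeq GRCm38.p6 (25275 genes) and GENCODE M21 (18); 1886 genes had no name.

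Counts were filtered by group (filterByExpr, minimum count 10), scaled by TMM and fitted with edgeR 4.0.16 quasi-likelihood tests under R 4.3.3: 4 group means (4 residual degrees of freedom) for effects within a sex, the sex-by-genotype difference and sex in WT, and an additive fit (5 degrees) over both sexes. Adjusted p-values are Benjamini-Hochberg over 18104 genes, two-sided, threshold 0.05. Differences set KO over WT, or female over male. The edgeR SE is the absolute log2 fold change divided by the square root of F. DESeq2 1.42.0 was an alternative. Log2 CPM used a prior count of 2. A count of 3 corresponds to 0.0392 to 0.0831 CPM. On simulated data with the real means and 200 genes changed, the fits recovered the changes. Recovery at the spread of these libraries (biological coefficient of variation 27.8%) and at the sizes of difference given here was not tested. The members and lists were chosen with earlier results of these data known. Named were all 9 genes, up to 4 genes per list with the smallest p over both sexes, of which some are given here, and the 10 genes most like the members' mean. P2rx3, Mrgprb4, Neurog1 and the tissue markers were chosen after their values were seen. Drgx of the identity list was not analysed here.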

Additional observations from a re-analysis of the deposited data

Results flagged for a closer look

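Scn9a was flagged because both male KO libraries lay below both male WT libraries while both female KO libraries lay above both female WT libraries; the sex-by-genotype difference, female over male, was 1.54 (edgeR adjusted p = 0.243). Pou4f1 was flagged for the same reason, with a difference of 0.75 (adjusted p = 0.275). Neither difference passed the threshold in edgeR, and DESeq2 called that of Scn9a (adjusted p = 0.0155) and not that of Pou4f1 (adjusted p = 0.278). Among all genes tested, KO lay below WT without overlap for 23.9% in males and above for 25.9% in females. The share of genes with both was not counted. Trpv1 was flagged because male KO 1, at 3.86 CPM, stood apart from the other 3 KO libraries (1.84 to 2.05 CPM): the gap took a share of 0.850 of the range of the 4 KO libraries on the log2 scale, above Dixon's critical value for 4 samples. Chance flags about 1 group in 20, and 18 were looked at.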

How the results depend on the processing

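The count of the 9 genes called in edgeR was 0 in each of the 5 comparisons. With DESeq2 it was 3 in males, 1 in females, 0 over both sexes, 1 for the sex-by-genotype difference and 2 for female WT against male WT. Without a filter on low counts it was 2 for female WT against male WT (Scn9a and Tac1), where 480 of 22732 genes were called lower. Leaving out 1 library at a time gave 0 to 3 there, with Scn9a, Tac1 and Pou4f1 called when either male KO library was left out; 1168 of 18364 genes were then called lower without male KO 1 and 1124 of 18359 without male KO 2, against 1 with all libraries. It was 0 in the other 4 comparisons. With the replicate number as a block the count was 0 in all 5; the numbers pair nothing in the labels, and the deviations of equal numbers correlated at -0.53 to 0.18 between groups. With edgeR and DESeq2's size factors, without mitochondrial genes, with mitochondrial share as a covariate, with the transcript length trend removed and with counts thinned to the shallowest library it was also 0. So it was without male WT 1 and female WT 2, the WT libraries highest in adipocyte genes, an alternative chosen after seeing the data.

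Signs turned for values near 0 and for some others; the cause was not tested. Adding the mitochondrial share to the fit gave values of 0.11 for Tac1 in males, 0.11 for Trpv1 in females, 0.0044 for the Piezo2 sex-by-genotype difference, and -0.56 for Scn10a, -0.19 for Ntrk3 and -0.46 for Piezo2 in female WT against male WT. The Ntrk3 sex-by-genotype difference was -0.014 with DESeq2's size factors and in DESeq2 and -0.020 without mitochondrial genes. Without male WT 1 and female WT 2 the values were 0.47 for Trpv1 in females, -0.00041 for Tac1 and -0.16 for Lhx4 over both sexes, and 0.33 for the Calca sex-by-genotype difference. With the length trend removed Stmn3 over both sexes was 0.047. Leaving out 1 library at a time also turned signs. In males Tac1 ranged over -0.90 to 0.044. In females Trpv1 ranged over -0.45 to 0.47 and Piezo2 over -0.023 to 0.68. Over both sexes Prph ranged over -0.031 to 0.30, Stmn3 over -0.22 to 0.039 and Syt1 over -0.000895 to 0.38. The sex-by-genotype difference ranged over -0.13 to 0.17 for Ntrk3 and -0.52 to 0.25 for Calca, and Calca in female WT against male WT over -0.62 to 0.15.

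Each group holds 2 libraries and all KO libraries are deeper than all WT libraries, so in the libraries as sequenced depth and genotype cannot be told apart by design. With counts thinned to the shallowest library, all 93 log2 fold changes compared kept their sign and their side of the threshold. Counting error limits Trpv1 most, at 21 to 295 counts a library.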
